A study of Mus musculus with 28 samples.

Results

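Choroid plexus genes are the 8 genes Ttr, Kl, Folr1, Kcnj13, Clic6, Aqp1, Sostdc1 and Otx2. These genes mark the epithelium that covers the folds of the choroid plexus in the brain's ventricles. They were taken by name. Each was represented by the brightest of the probe sets annotated to that gene alone, which made 8 of the 18193 genes with such a probe set. All 8 were among the 13931 genes tested. The question for each gene was which tissue pieces carried it, and whether it was high in tumour pieces where the other choroid plexus genes were low.

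The pieces were mouse tissues measured on Affymetrix whole-genome mouse arrays, which give 1 brightness value (intensity) for each probe set. There were 10 medulloblastomas, 6 gliomas and 12 normal brains. The study as described holds more pieces (22, 6 and 24), and the rest were not analysed here. Medulloblastomas arise in the cerebellum, and gliomas resemble the brain's glial cells. The medulloblastomas were 3 hGFAP-Cre::p53-/- pieces without a Rictor change, 2 with Rictor+/- and 5 with Rictor-/-. The gliomas were 1, 4 and 1 piece of the same genotypes, and the normal brains 1, 5 and 5. The 12th normal brain, Z2, is labelled as coming from normal mice with wild-type p53. Every piece but Z2, normal brains included, was thus labelled hGFAP-Cre::p53-/-. The Cre recombinase is driven by the human GFAP promoter, which is active in neural progenitors and glia. Rictor is a subunit of the kinase complex mTORC2. The labels give at least 70% tumour cells for the tumour pieces and name no brain region for the normal ones. Arrays are named here by tissue and by the letter and number of their titles. All titles also carry the prefix YZ or YZ2, whose meaning the labels do not give. Nothing in the labels says which pieces came from separate animals, so the spread behind each p-value is that between pieces, which may in part be technical.

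The choroid plexus makes cerebrospinal fluid. Its epithelial cells move ions and water into the ventricle through pumps, channels and transporters, carry vitamins from the blood, and secrete carrier proteins and growth factor inhibitors into the fluid. Ttr encodes transthyretin, the carrier of thyroid hormone and of retinol-binding protein. Kl encodes Klotho, a co-receptor for the hormone FGF23, and Folr1 a folate receptor. Kcnj13 encodes a potassium channel, Clic6 a member of the chloride intracellular channel family and Aqp1 a water channel. Sostdc1 encodes a secreted inhibitor of BMP and WNT signals. Otx2 encodes a homeodomain transcription factor that choroid plexus development needs. It also acts in the early forebrain and midbrain, and it is well known from human medulloblastoma.

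Upstream sequence was taken from RefSeq (build GRCm38.p6) for 4 of the 8 genes: Kl, Kcnj13, Aqp1 and Otx2, the last with 4 start sites. Member windows on the chromosome that holds Ttr were left out, so a window of Ttr, if any, was not used. The 250 bases before the start are shown for Kl and Kcnj13, whose levels went with Ttr from array to array. They are also shown for the outermost start of Otx2, whose level followed Ttr far less over the 28 arrays. All run 5′ to 3′ on the strand of the gene. Capitals mark the letters TATAAA, searched on both strands (reverse complement TTTATA).

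Kl, chr5:150952357-150952606, plus strand: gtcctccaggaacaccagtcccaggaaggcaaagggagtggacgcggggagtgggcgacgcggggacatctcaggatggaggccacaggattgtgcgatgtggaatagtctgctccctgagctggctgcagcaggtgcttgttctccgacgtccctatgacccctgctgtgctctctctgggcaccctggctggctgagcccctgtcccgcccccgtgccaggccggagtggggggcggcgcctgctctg
Kcnj13, chr1:87394730-87394979, minus strand: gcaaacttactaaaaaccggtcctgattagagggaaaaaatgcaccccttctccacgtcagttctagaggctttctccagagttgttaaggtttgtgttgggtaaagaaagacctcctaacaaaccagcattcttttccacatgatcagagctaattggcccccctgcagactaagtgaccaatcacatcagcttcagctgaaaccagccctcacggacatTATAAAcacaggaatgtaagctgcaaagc
Otx2, chr14:48667645-48667894, minus strand: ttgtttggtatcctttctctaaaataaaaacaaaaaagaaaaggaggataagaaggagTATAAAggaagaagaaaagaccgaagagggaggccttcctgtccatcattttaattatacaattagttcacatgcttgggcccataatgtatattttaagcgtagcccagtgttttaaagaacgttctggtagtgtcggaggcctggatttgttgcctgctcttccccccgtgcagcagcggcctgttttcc

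The match in Kcnj13 began 29 bases before the start and the match in Otx2 began 192 bases before it. The Kl stretch had none and was the richest in G and C of the sequences shown, at 66.8% against 45.2% for Kcnj13 and 42.0% for Otx2. Of all 32851 RefSeq windows of this length, 12.4% held TATAAA. The letters TAATCC, the core that OTX proteins are known to bind, were also searched on both strands (reverse complement GGATTA). They occurred in 1 of the 7 windows used for these genes, before another start of Otx2, and in 6.25% of all windows. That match lies in the 30 bases of chr14:48665303-48665332 on the minus strand, shown with GGATTA in capitals, and it begins 211 bases before the start.

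Otx2, inner start: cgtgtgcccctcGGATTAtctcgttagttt

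Ttr split the 28 arrays into a very high and a low set with nothing between. It was 9559.9 in normal brain B2, 9233.7 in C5, 9184.8 in C3, 8444.6 in C2, 6510.2 in B4, 5651.7 in C6, 5634.7 in B6 and 5381.1 in B7. In the other 4 normal brains it was 202.6 (A6), 195.6 (Z2), 60.2 (C1) and 32.8 (B1). Among medulloblastomas it was 8734.3 in B4 and 5340.4 in A5, inside the range of the high normal brains. The other 8 medulloblastomas lay between 5.1 (C5) and 105.8 (C6). The 6 gliomas lay between 10.4 (C3) and 146.5 (B2). So 8 of 12 normal brains, 2 of 10 medulloblastomas and no glioma had Ttr at 5340.4 or more, and no array lay between that and 202.6.

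Kl, Folr1 and Kcnj13 had their 10 highest arrays in common with Ttr. In those arrays Kl, the FGF23 co-receptor, ran from 40.3 (normal brain B6) to 160.2 (normal brain C5). The next array below was normal brain C1 at 26.5, and the gliomas lay between 1.0 and 6.0. Folr1, the folate receptor, ran from 45.0 (normal brain B4) to 164.9 (medulloblastoma B4) in the same arrays. It was at most 15.9 elsewhere, a gap far smaller than that of Ttr. Kcnj13, the potassium channel, ran from 59.8 (normal brain B6) to 272.0 (normal brain C5), with normal brain A6 next at 52.3. Sostdc1, the BMP and WNT inhibitor, shared 9 of its 10 highest arrays with Ttr. The exception was medulloblastoma C6 at 94.5, which had Ttr at 105.8 and Kl at 2.8.

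Clic6 and Aqp1 shared fewer, 7 of 10 each. Clic6 was highest of all in medulloblastoma A6, at 841.7, an array with Ttr at 36.8, Kl at 3.6 and Kcnj13 at 9.9. It was also 209.1 in normal brain C1 and 151.4 in B1, where Ttr was low. These 2 pieces had the highest Ppp1r1b, a marker of striatal neurons, of all arrays (760.2 and 803.1). In the gliomas Clic6 lay between 6.7 and 17.2, below every normal brain, whose lowest was 38.6 (A6). Aqp1, the water channel, varied least: it was at most 67.1 (normal brain C5). Its highest arrays included normal brain A6 (52.8), glioma B2 (46.7) and medulloblastoma C4 (45.3), none of which had Ttr above 202.6.

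**Figure D1:**
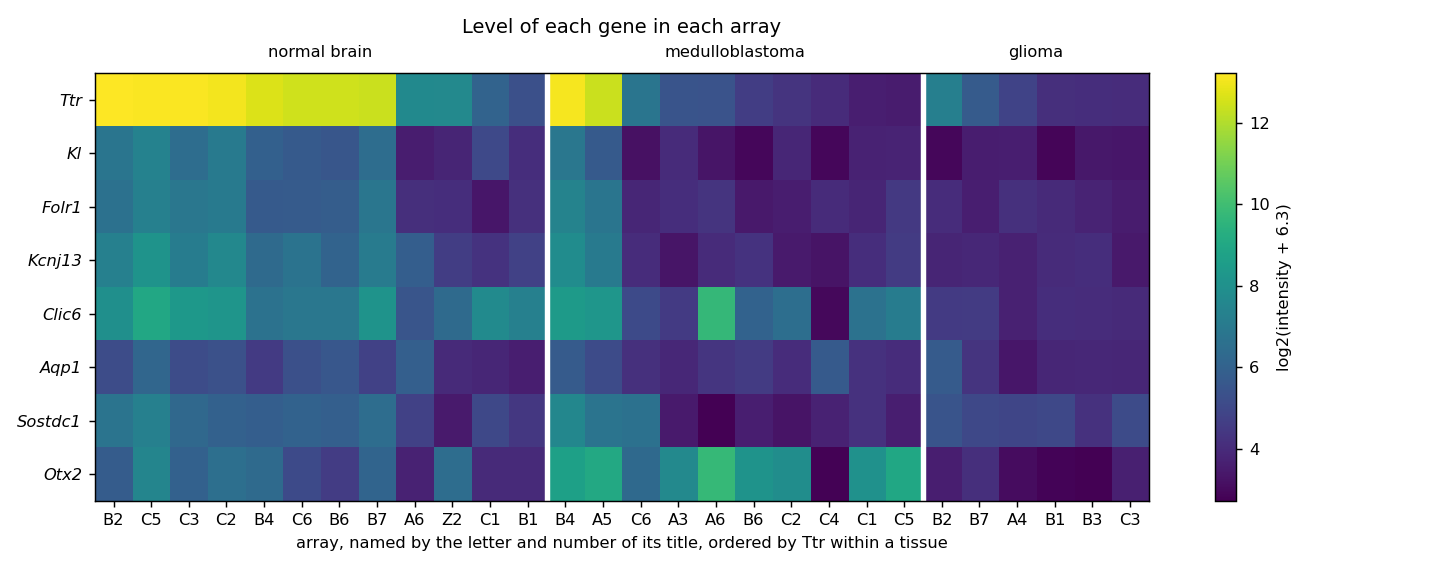
Colour shows log2(intensity + 6.3) of the 8 genes (rows) in the 28 arrays (columns), ordered by Ttr within each tissue. The 8 leftmost normal brains and medulloblastomas B4 and A5 are bright for Ttr and raised for Kl, Folr1 and Kcnj13. Otx2 passes an intensity of 100 in 8 of 10 medulloblastomas.

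Over the 28 arrays Otx2 followed another order, and shared 4 of its 10 highest arrays with Ttr. Pearson's r of the log2 values of Otx2 and Ttr was 0.222. Within the 12 normal brains alone it was 0.663, and r of Otx2 with the other 7 genes lay between 0.271 (Aqp1) and 0.718 (Folr1). In the medulloblastomas Otx2 was 847.6 (A6), 520.2 (A5), 493.8 (C5), 405.7 (B4), 267.8 (B6), 255.2 (C1), 226.4 (C2), 199.2 (A3), 72.4 (C6) and 0.6 (C4). The 8 highest values of all 28 arrays were medulloblastomas, and 6 of these had Ttr at or below 37.7. In the normal brains Otx2 ran from 6.9 (A6) over a median of 53.2 to 175.5 (C5). Normal brain Z2 had Otx2 at 82.8 with Ttr at 195.6. It also had Gabra6, a marker of cerebellar granule neurons, at 4918.3, the highest of all arrays. The gliomas had 11.4 (B7), 6.3 (C3), 5.9 (B2), 2.2 (A4), 0.7 (B1) and 0.4 (B3). Medulloblastoma C4, the exception, had Otx1, the closest relative of Otx2, at 448.9. Only A5 among the other medulloblastomas was near it, at 442.8, and the rest lay between 7.6 and 75.9.

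**Figure D2:**
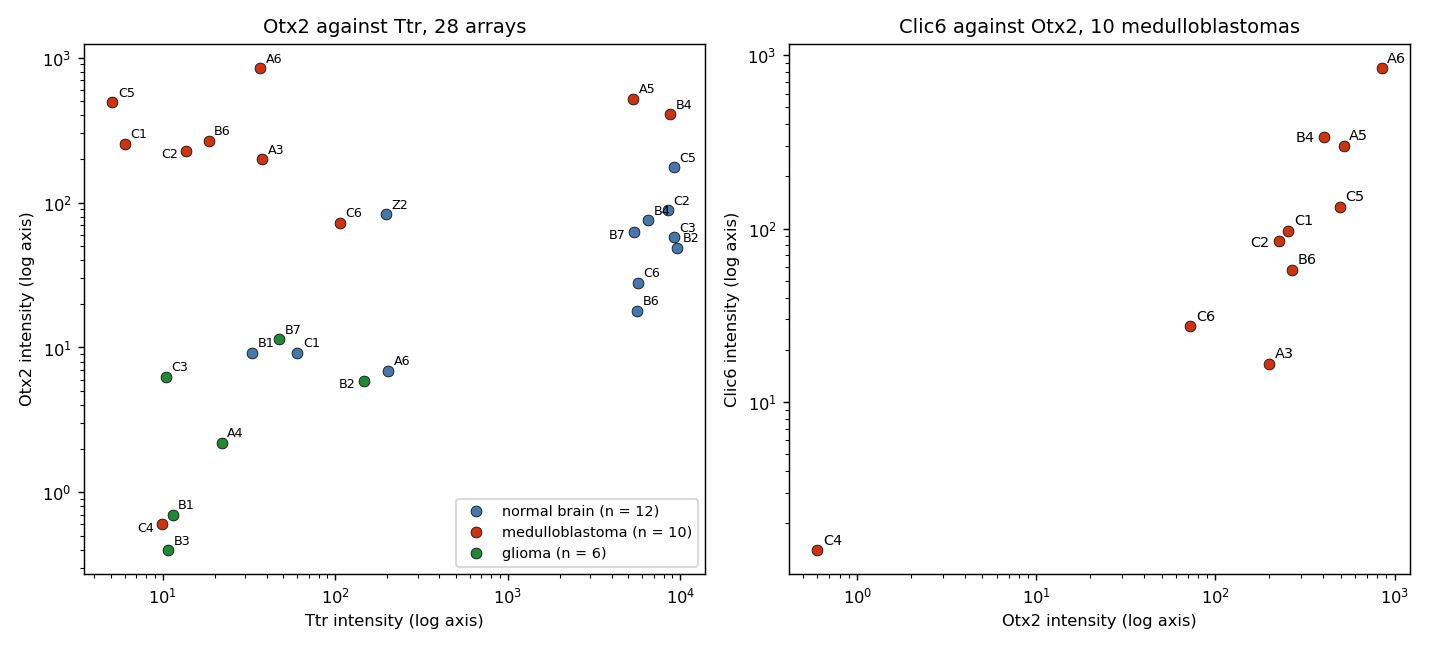
Left, Otx2 against Ttr intensity in the 28 arrays, and right, Clic6 against Otx2 in the 10 medulloblastomas, each point 1 array named by its letter and number and all axes logarithmic. Medulloblastomas such as C5 (Otx2 493.8, Ttr 5.1) lie high for Otx2 and low for Ttr, and Clic6 is highest where Otx2 is highest (A6) and lowest where it is lowest (C4).

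A member counted as above the array average where its intensity passed 100, the trimmed mean to which the arrays had been scaled. By that count, 4 or more of the 7 genes other than Otx2 were above average in 7 arrays: normal brains B2, B7, C2, C3 and C5 and medulloblastomas A5 and B4. The requirement of 4 was chosen after the values were seen. With a limit of 50 it was met in 10 arrays, and with 200 in 0.

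The tissue labels were checked against other genes. Atoh1, a marker of granule neuron precursors, was 493.3 to 1678.9 in 9 medulloblastomas but 37.5 in C6, which also had Gabra6 at 1324.3. Medulloblastoma B6 had Gabra6 at 1637.5 with Atoh1 at 933.3. Normal brain C2 had Atoh1 at 176.2 and the proliferation gene Mki67 at 274.8, where no other normal brain passed 21.1 and 53.7. Normal brains B2, C5 and Z2 had high Gabra6 (1740.4 to 4918.3) and Pcp2, a Purkinje cell gene (1636.9 to 5657.2). The other 9 had Camk2a, a forebrain neuron gene, at 1782.3 to 2944.0. Results are given without these arrays where that moved a call. The actin 3' to 5' ratio, which rises as RNA breaks down, had medians of 2.21 in gliomas, 2.58 in medulloblastomas and 3.47 in normal brains. In bulk pieces, fewer cells of a type and less RNA per cell cannot be told apart.

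Medulloblastoma and normal brain were compared to see which of these genes the tumours carried. Otx2 was higher in medulloblastoma and Ttr, Kl and Kcnj13 were lower. Mean Otx2 intensity was 329 ± 247 (SD, n = 10) in medulloblastomas and 55.2 ± 48.2 (SD, n = 12) in normal brains. The difference was 2.27 (SE 0.64) on the log2(intensity + 6.3) scale (limma, Benjamini-Hochberg adjusted p = 0.00296). All differences below are on this scale, which understates changes of dim genes. The groups overlapped through medulloblastomas C4 and C6. Ttr differed by -4.53 (SE 1.27, adjusted p = 0.00293), from 5010 ± 3890 (SD, n = 12) in normal brain to 1430 ± 3060 (SD, n = 10). Kl differed by -1.72 (SE 0.49, adjusted p = 0.00322) and Kcnj13 by -1.80 (SE 0.53, adjusted p = 0.00462). The groups overlapped for these 3 genes too. Medulloblastomas A5 and B4 lay among the high normal brains, and low normal brains lay among the other tumours. Ttr, for example, was 60.2 in normal brain C1 and 105.8 in medulloblastoma C6.

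The other 4 genes did not pass. Differences were -1.14 (adjusted p = 0.0607) for Folr1, -1.19 (adjusted p = 0.0507) for Sostdc1, -0.95 (adjusted p = 0.172) for Clic6 and -0.41 (adjusted p = 0.295) for Aqp1. In all, 1 member was called higher and 3 lower, with a median difference of -1.16 against 0.01 over all genes tested. Across all genes 64.2% were called, 32.2% higher and the rest, 4457 genes, lower, so 4 of 8 is no more than the background share. Leaving out medulloblastoma B4 alone brought Folr1 to -1.60 (adjusted p = 0.00726) and Sostdc1 to -1.66 (adjusted p = 0.00447). Both genes also passed without medulloblastoma A5 and without normal brain A6, B1 or C1, each left out alone, and Sostdc1 passed without medulloblastoma C6. Both passed with quantile normalization too, which made 6 members called. With the mean over all probe sets of a gene 3 were called, and Kl then fell below the filter. With each array left out in turn, Folr1 lay between -1.60 and -0.89 and Sostdc1 between -1.66 and -0.96. Without normal brain C2 and medulloblastoma C6, an alternative chosen after seeing the data, Sostdc1 also passed (-1.40, adjusted p = 0.0249). Within prefix YZ the Otx2 difference was 0.90 (adjusted p = 0.6), and within YZ2 it was 2.69 (adjusted p = 0.00115). Medulloblastoma C4, at 0.6, is one of the YZ arrays.

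**Figure D3:**
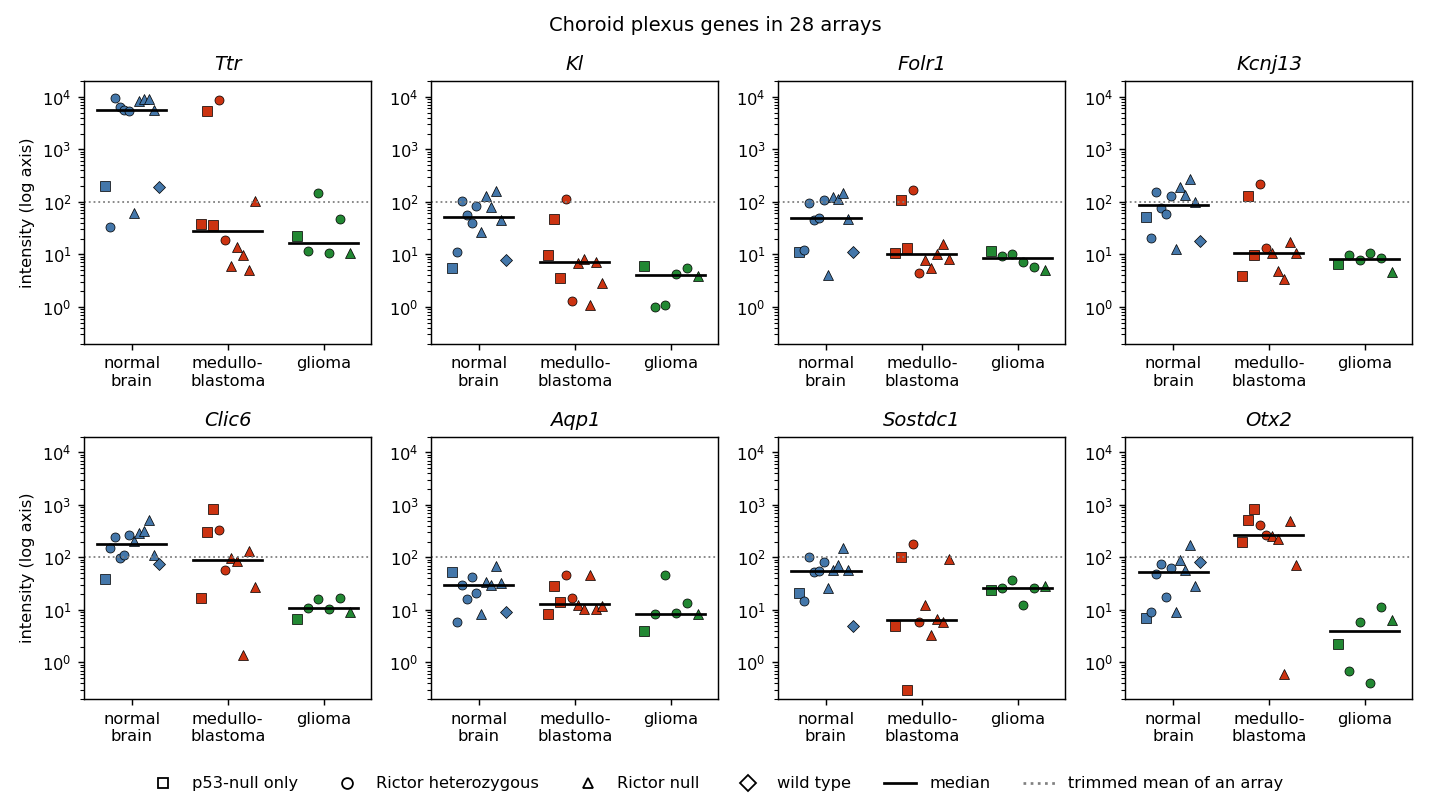
Intensity (log axis) of each gene in each array, by tissue, with symbols for genotype, a bar at the median and a dotted line at the trimmed mean of 100. Ttr falls into high and low arrays in normal brain, Kl and Kcnj13 are spread there without a clear split, and medulloblastomas A5 and B4 stand above the others for Ttr, Kl, Folr1 and Kcnj13, while median Otx2 is 261.5 in medulloblastoma, 53.2 in normal brain and 4.1 in glioma.

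In glioma, 6 of the 8 genes were lower than in normal brain and 0 higher. Ttr differed by -6.42 (SE 1.45, adjusted p = 0.000553), Clic6 by -3.45 (SE 0.69, adjusted p = 0.000157) and Kcnj13 by -2.79 (SE 0.61, adjusted p = 0.000389). Kl differed by -2.56 (SE 0.56, adjusted p = 0.00039), Folr1 by -2.04 (SE 0.60, adjusted p = 0.00584) and Otx2 by -2.19 (SE 0.73, adjusted p = 0.0133). For Clic6 and Kcnj13 no glioma reached the lowest normal brain. Aqp1 (-0.88, adjusted p = 0.0583) and Sostdc1 (-0.95, adjusted p = 0.189) did not pass. The median difference of the 8 was -2.37 against 0.05 over all genes, of which 53.9% were called, 28.4% higher and 25.5% lower. The Otx2 call was lost when the actin 3' to 5' ratio was added to the fit (-1.92, adjusted p = 0.0611), with a pseudocount of 32 (-1.12, adjusted p = 0.0515), and within the YZ2 arrays (-2.08, adjusted p = 0.0813, against -3.05 and 0.0464 within YZ). Kl (-2.67, adjusted p = 0.0719) and Folr1 (-2.74, adjusted p = 0.0888) were lost within YZ2 too. Aqp1 passed without glioma B2 (-1.17, adjusted p = 0.0108), and also without normal brain B1 (-1.08), B4 (-0.96) or C1 (-0.96) or medulloblastoma C4 (-0.91).

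Between the tumours, Otx2 and Clic6 were higher in medulloblastoma than in glioma. Otx2 differed by 4.46 (SE 0.77, adjusted p = 8.05e-05), from 4.48 ± 4.23 (SD, n = 6) in glioma to 329 ± 247 (SD, n = 10). Every medulloblastoma but C4 was above every glioma. Within the prefixes the difference was 3.95 (adjusted p = 0.047) for YZ and 4.77 (adjusted p = 0.00371) for YZ2. Clic6 differed by 2.50 (SE 0.74, adjusted p = 0.0118), from 11.8 ± 4.14 (SD, n = 6) to 190 ± 256 (SD, n = 10). Its call was lost within YZ (2.55, adjusted p = 0.109) and within YZ2 (2.50, adjusted p = 0.056). The other 6 genes did not pass, with differences from -0.24 (Sostdc1) to 1.89 (Ttr, SE 1.54, adjusted p = 0.391). Of all genes 28.4% were called, 13.6% higher and 14.8% lower, and the median was 0.95 for the 8 genes and 0.01 for all. The median order was thus medulloblastoma, normal brain, glioma for Otx2, with each step past the threshold. For Ttr it was normal brain, medulloblastoma, glioma, and the last step did not pass.

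**Figure D4:**
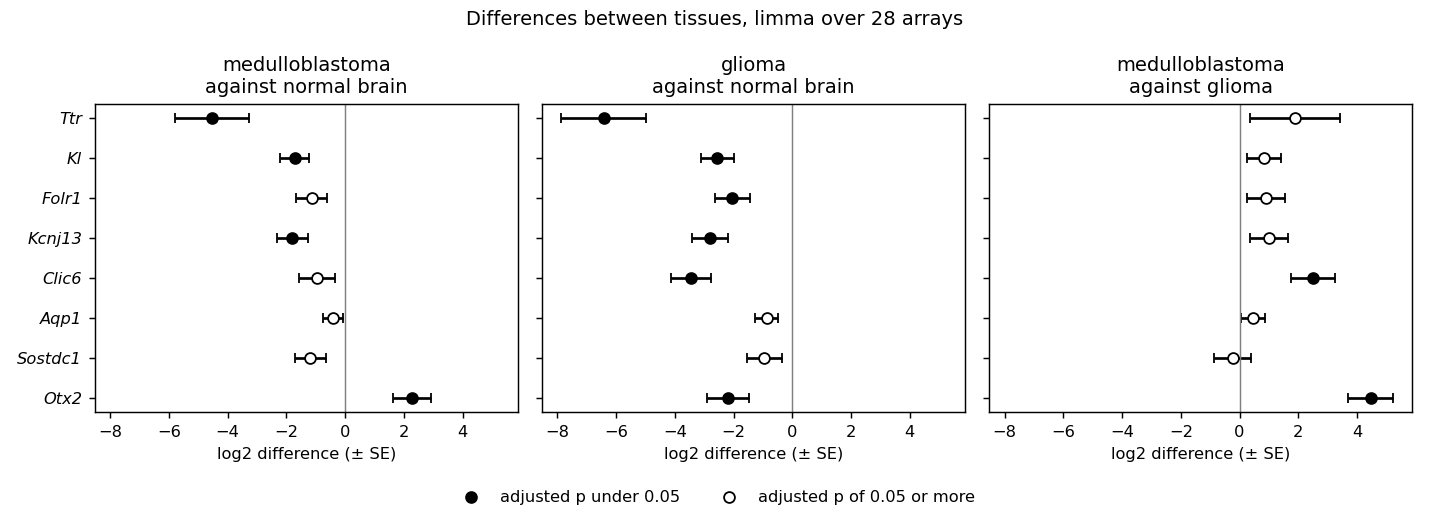
Differences between tissues on the log2(intensity + 6.3) scale with their standard errors (limma), filled where the adjusted p was under 0.05. Otx2 lies at 2.27 against normal brain in medulloblastoma and at -2.19 in glioma, and Ttr at -4.53 and -6.42.

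Whether Otx2 moved apart from the other 7 genes was tested directly, on the difference of log2 values within each array. Between medulloblastoma and normal brain, Otx2 rose relative to all 7. The gap was 6.66 against Ttr, 3.94 against Kcnj13, 3.84 against Kl, 3.33 against Sostdc1, 3.27 against Folr1, 3.09 against Clic6 and 2.57 against Aqp1. Two-sided permutation tests with 100000 resamples, adjusted over the 7 comparisons, gave p from 7e-05 (Kl, Kcnj13 and Clic6) to 0.00373 (Aqp1). Between medulloblastoma and glioma, Otx2 rose relative to 6 of the 7, by 2.0 (Clic6) to 4.77 (Sostdc1), with an adjusted p of 0.00291 for each in exact two-sided permutation tests. Against Ttr the gap was 3.07 with an SD of 3.50 among the 10 medulloblastomas, and it did not pass (exact permutation test, adjusted p = 0.0577). It passed when medulloblastoma B4 (3.71), A5 (3.60) or C4 (3.36) was left out.

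Within the 10 medulloblastomas, Clic6 went with Otx2. Clic6 was 841.7 in A6, 338.4 in B4, 299.9 in A5, 133.4 in C5, 97.0 in C1, 84.4 in C2, 58.0 in B6, 27.3 in C6, 16.6 in A3 and 1.4 in C4. That order is close to the order of Otx2, with no tumour more than 2 places away from it. Pearson's r of the log2 values was 0.868 (permutation p = 0.00011, adjusted p = 0.00308 over 28 pairs of the 8 genes). Spearman's rho was 0.915 (permutation p = 0.00054, adjusted p = 0.0151). Without C4 and C6, the arrays farthest from the median of Otx2, r was 0.901. B4 and A5, next after A6 for Clic6, were also the tumours with high Ttr (8734.3 and 5340.4). No r without B4 and A5 was computed, and the part of choroid plexus in their Clic6 was not tested. Each prefix holds 5 of the tumours, and correlations were given for 6 or more. Clic6 ranked 14th of 13930 genes by its r with Otx2 in these tumours, a rank looked up after the values were seen. By r, 9 of the 28 pairs passed, and by rho only Clic6 with Otx2. The other 8 pairs were among Ttr, Kl, Folr1, Kcnj13 and Sostdc1. They rest on A5 and B4, without which r lay between -0.179 and 0.538.

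The genes most like the choroid plexus genes were ranked by r over the 28 arrays with the mean log2 of the 7 genes other than Otx2. That mean itself falls into high and low arrays, which all the r values share. Among the genes that passed the filter on low means, the 8 highest were Kcne2 (0.960), a potassium channel subunit, Krt18 (0.938), an epithelial keratin, F5 (0.890), coagulation factor V, Smim22 (0.889), Prr32 (0.868), Inmt (0.832), Ecrg4 (0.822) and Slc13a4 (0.816), a sulphate transporter. Slc4a5, a bicarbonate transporter of the wider list, had an r of 0.904 but fell below that filter. Without normal brain C5 and medulloblastoma B4 they lay between 0.772 (Ecrg4) and 0.954 (Kcne2). Kcne2 had its highest values at 136.8 in normal brain and 129.3 in medulloblastoma B4, with a glioma maximum of 5.2. The genes most like Otx2 over the 10 medulloblastomas were 1700001O22Rik (0.948), Entpd3 (0.933), Tysnd1 (0.932), Osgin2 (0.926), Med12l (0.919) and Ctnna1 (0.907). Their r fell to between 0.566 and 0.744 without C4 and C6.

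A wider list of 30 choroid plexus genes held 22 that were tested. In glioma 11 were lower than in normal brain and 3 higher. Slc13a4 differed by -2.86, Ecrg4 by -2.30 and Kcne2 by -2.15, while the growth factor gene Igf2 differed by 2.36. Over all genes 53.9% were called. In medulloblastoma 4 were lower and 4 higher, fewer of the 22 than the 64.2% of all genes called. Slc13a4 (-2.42) and Car12, a carbonic anhydrase (-1.30), were among the lower. Rdh5, a retinol dehydrogenase (1.92), and Slc31a1, a copper transporter (1.35), were among the higher. Between the tumours, Cldn2, a tight junction claudin of the choroid plexus, was higher in medulloblastoma by 2.26 (SE 0.47, adjusted p = 0.000584). It was also above normal brain, by 1.14 (adjusted p = 0.0115). The list was 4 higher and 2 lower between the tumours, where 28.4% of all genes were called, with Igf2 at -3.26. Its median was -0.33, -0.86 and 0.64 in the 3 comparisons.

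Partners of the 8 genes (hormone and vitamin carriers, pumps, and the BMP and LRP proteins that Sostdc1 acts on) numbered 22, of which 17 were tested. In medulloblastoma 2 were higher than in normal brain and 7 lower. Lrp6, a WNT co-receptor, was higher by 1.26 (SE 0.31, adjusted p = 0.000989). Atp1b1, a subunit of the sodium pump that neurons also carry, differed by -3.34, and Dio2, which activates thyroid hormone, by -1.87. In glioma 5 were higher and 4 lower, among them the ligand genes Bmp4 (1.80) and Bmp7 (1.39) on the higher side and Atp1b1 (-2.58) and Rbp4, the retinol carrier (-1.75), on the lower. Between the tumours 2 were higher in medulloblastoma and 5 lower, with Rbp4 at 2.03 and Bmp4 at -2.99. The medians were -0.32, 0.15 and -0.23, and 64.2%, 53.9% and 28.4% of all genes were called in the same comparisons.

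Genes of the setting in which Otx2 is expressed in the hindbrain were nearly all higher in medulloblastoma. Of 12 listed, 9 were tested, and 8 were higher than in normal brain and 0 lower, with a median of 3.0, where 32.2% of all genes were higher. The sum over the 12 genes was 8033 to 11292 in the medulloblastomas. Normal brains Z2 (9993) and C5 (9099), which had high Gabra6, lay inside that range, and the other 10 lay between 746 and 3731. By mean log2, however, Z2 (6.47) and C5 (6.36) lay below every medulloblastoma, the lowest of which was A6 at 6.77. Atoh1 differed by 5.56, the engrailed gene En2 by 3.31, Pax6 by 3.22 and Barhl1 by 3.06. Eomes, a marker of unipolar brush cells, did not pass (0.18, adjusted p = 0.806). Otx1 differed by 1.79 (SE 0.48, adjusted p = 0.00212). Against glioma 7 were higher in medulloblastoma and 0 lower, where 13.6% of all genes were higher. In glioma against normal brain 1 was higher, En2 (2.16), where 28.4% of all genes were higher.

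Markers of other cells that a piece could hold also moved. Of 9 ependymal genes tested, 7 were lower and 1 higher in medulloblastoma than in normal brain, and 6 lower in glioma. Ccdc153, a gene of ciliated cells, differed by -1.94 and -1.76. The summed intensity of the 11 ependymal genes measured was 119 to 404 in medulloblastomas, 59 to 286 in gliomas and 172 to 469 in normal brains. Of 12 genes of meninges and fibroblasts, 5 were lower and 2 higher in medulloblastoma, and 6 lower in glioma. Ptgds, an enzyme of the meninges and of glia, differed by -3.54 and -2.98. Their summed intensity was 761 to 2342, 749 to 3133 and 3736 to 8981 in the same order, so by the sum both tumours lay below every normal brain. The brightest genes carry the sum: by mean log2 the groups overlapped, with glioma B2 at 6.77 and medulloblastoma A6 at 6.69 above normal brain C3 at 5.65. Of 9 endothelial genes, 3 were lower in medulloblastoma, and 2 lower and 1 higher in glioma. The shares of these endothelial genes that were lower were near those of all genes. Of 3 pineal and photoreceptor genes tested, Otx1 was higher and Sag lower in medulloblastoma, and Sag was lower in glioma. Crx, the photoreceptor factor, was at most 22.5 in any array. The single haemoglobin gene tested, Hba-a2, was higher in both tumours (1.28 and 1.0). No marker was at 0 in any array. The part of these cells in the results was not tested.

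Rictor-null pieces were compared with the other genotypes within a tissue, to see whether loss of Rictor went with these genes. None of the 8 passed in any of the 3 comparisons. In medulloblastoma, Rictor-null against p53-null only gave -2.03 (SE 1.11, adjusted p = 0.981) for Otx2, with means of 210 ± 191 (SD, n = 5) and 522 ± 324 (SD, n = 3). Without medulloblastoma C4 the difference was -1.03. The same comparison gave -3.30 (SE 1.87, adjusted p = 0.981) for Ttr, which was high in 1 of the 3 p53-null-only tumours, A5. Against the 2 Rictor-heterozygous tumours, B4 and B6, Ttr differed by -4.40 (SE 2.15, adjusted p = 1.0) and Kcnj13 by -2.17 (SE 0.99, adjusted p = 1.0). Without B4 the Ttr difference was -0.17 and that of Kcnj13 -0.39, and without B6 they were -8.64 and -3.95. Without A5 the Ttr difference against p53-null only was -0.99. In normal brain, differences lay between 0.22 (Folr1) and 0.65 (Clic6), and the Ttr difference of 0.37 became -1.11 without normal brain B1. Over all genes 0.00718% were called in each medulloblastoma comparison, which is 1 gene (605 and 199 at an unadjusted p under 0.05). In normal brain 0% were called, with 439 at an unadjusted p under 0.05. The Rictor effect was also compared between medulloblastoma and normal brain, and no member passed. The largest of these, for Ttr, was -4.78 (SE 2.86, adjusted p = 1).

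Several genes had more than 1 probe set, which serves as a check on the array values. The other 3 probe sets of Ttr followed the one used with r of 0.985 to 0.997 over the 28 arrays. The second probe sets of Clic6 and Sostdc1 did so with r of 0.941 and 0.896. Their calls differed in part. In a fit over single probe sets, the second of Clic6 differed by 1.14 (adjusted p = 0.0776) between medulloblastoma and glioma, against 2.50 (adjusted p = 0.0153) for the one used. Against normal brain it differed by -0.92 (adjusted p = 0.0397) in medulloblastoma, where the one used did not pass. Among the medulloblastomas it was also highest in A6 (286.5), but lowest in A3 (14.8), with C4 at 19.6. The second probe set of Kl did not follow the one used (r = 0.257). It was dim, between 0.3 and 11.7, and differed by 0.12 (adjusted p = 0.519) between medulloblastoma and normal brain. Folr1, Kcnj13, Aqp1 and Otx2 had 1 probe set each, so their values have no such check.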

How the data were processed

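The deposited values are linear intensity, 1 per probe set and array for 45101 probe sets, made with MAS5 and GCOS per the submitters' processing notes, which give no versions. From the values, every array had a trimmed mean of 100, and medians ran from 18.8 to 27.8. Detection calls did not enter, so the lowest intensities have no firm order, and precision is limited by how many arrays there are. No columns were identical. Of the probe sets, 34945 had 1 gene symbol in the platform annotation, 932 several and 9160 none, and 64 controls were left out. Where a gene had several probe sets, the one brightest on average was used. Genes with a mean above the 30th percentile (3.88 on the log2 scale) were tested as log2(intensity + 6.3), the 25th percentile of the table, with limma 3.58.1 in R 4.3.3 (lmFit, eBayes with trend, Benjamini-Hochberg adjusted p under 0.05). Tissue comparisons came from 1 model of tissue and genotype over 28 arrays. The wild-type array has its own genotype term and adds nothing to tissue differences, though the means of n = 12 include it. Genotype comparisons were fitted within a tissue. Otx2 was set against each other gene by permutation tests (Python 3.11.15, numpy 2.4.6). Scripts were tested on simulated data.

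The 8 genes, the lists and the alternatives were chosen with earlier results of these data known. Text names all 8 genes, the most changed called genes of each list (at most 4), the 8 genes most like the mean of 7 members and the 6 most like Otx2 in medulloblastoma, plus regional markers. Other genes and arrays (Mki67, Crx, Eomes and Otx1 levels) were named after their values were seen. Alternatives covered the pseudocount, filter, normalization, probe set, variance model, covariates, prefix, title code and each array left out.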

Additional observations from a re-analysis of the deposited data

Results flagged for a closer look

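In 6 of 48 combinations of a gene and a group of 4 to 10 arrays, 1 array lay far from the others by Dixon's gap test, which flags about 1 in 20 groups by chance. Otx2 at 0.6 in medulloblastoma C4 lay below the other 9 medulloblastomas. Among the 5 Rictor-null medulloblastomas, Ttr at 105.8 and Sostdc1 at 94.5 in C6 and Aqp1 at 45.3 in C4 lay above the others. Ttr at 32.8 in normal brain B1 lay below the other 4 Rictor-heterozygous normal brains. Ttr at 60.2 in normal brain C1 lay below the other 4 Rictor-null normal brains. Medulloblastoma C4 had Atoh1 at 717.4 and C6 had it at 37.5.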

How the results depend on the processing

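Counts of called genes moved by over 1.5 times within a prefix, with the title code as a fixed block and in the Rictor comparisons. Within YZ, 5439 genes were called between medulloblastoma and normal brain and 1873 between the tumours, and within YZ2, 3372 between glioma and normal brain and 1119 between the tumours, from fewer arrays. Of the 8 genes, 2 and 3 were called against normal brain within YZ2 (from 4 and 6), and 1 between the tumours within each prefix (from 2). The Rictor-null comparison with p53-null only, at 1 gene, gave 2 with a pseudocount of 1, 0 with 32, 0 with the prefix in the fit and 6 with group means over 28 arrays. That with Rictor heterozygotes, also at 1, gave 0 with a pseudocount of 1, with the prefix and with group means. The cause was not tested.

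Tumours and normal brains share title codes. The pieces of each of the 11 same-code pairs had the same genotype label. The letter of a code goes with genotype in all arrays, so that match says nothing about pairing. In pairs A6, B4 and C1 the tumour and the normal brain carried different prefixes. The residuals of the 11 pairs correlated between -0.122 and 0.251, which cannot tell whether the pieces of a pair came from the same animal. The labels do not say that a code marks an animal, so the main fits did not pair samples by code. With the code as a fixed replicate block, 1093 genes and 1 of the 8 (Otx2) were called between the tumours. Against normal brain in medulloblastoma, the 4 called members became 5 with the fixed block (Sostdc1 added) and 6 with a random one (Folr1 and Sostdc1 added). The count of called members was 5 with a pseudocount of 1. It was also 5 within YZ, but Otx2 was not among these. Between the tumours Clic6 with the fixed block was at 3.45 (adjusted p = 0.0544 with limma).

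Signs turned in uncalled differences only: Aqp1 between the tumours (-0.56 with the block), Sostdc1 between the tumours (0.10 with a pseudocount of 32, 0.88 within YZ2), and, for Rictor-null against p53-null only, Aqp1 (0.01 with 32, 0.04 with the prefix) and Sostdc1 (0.44 with a pseudocount of 1). Leaving out 1 array gave ranges of -0.81 to 0.02 for Sostdc1 between the tumours. For Rictor-null against p53-null only it gave -1.65 to 0.21 (Kcnj13), -0.32 to 0.33 (Aqp1) and -0.83 to 1.20 (Sostdc1). Against Rictor-heterozygous medulloblastomas it gave -3.40 to 0.56 (Kl), -3.47 to 0.52 (Folr1) and -3.26 to 0.70 (Sostdc1), and in normal brain -1.11 to 1.75 (Ttr), -0.19 to 0.90 (Folr1) and -0.13 to 0.51 (Sostdc1). Called genes ranged from 0 to 3, 0 to 1 and 0 to 1 in the 3 Rictor comparisons. The limit of 200 for a gene above average gave 0 arrays. Leaving out pairs of arrays by code was not run.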
